A study of Arabidopsis thaliana with 6 samples.

Results

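The auxin-inactivating genes studied here are 8 members of the GH3 family and DAO1. They were chosen by their locus codes: GH3.1 (AT2G14960), GH3.2 (AT4G37390), GH3.3 (AT2G23170), GH3.4 (AT1G59500), GH3.5 (AT4G27260), GH3.6 (AT5G54510), GH3.9 (AT2G47750), GH3.17 (AT1G28130) and DAO1 (AT1G14130). All 9 were found among 31305 loci in the deposited table. Bulk RNA sequencing gave their transcript levels in callus, a growing mass of cells that explants produce when fed auxin and cytokinin. It came from hypocotyls of 1-week-old Arabidopsis thaliana seedlings and was collected after 7 days on callus-inducing medium. Col-0, the wild type, has 3 libraries, and 3 are labelled rap2.12-2, an allele named after RAP2.12, a transcription factor of the oxygen response. The series describes the replicates as biological, and the nature of the allele and the number of plants or calli in a sample are not given in the sources used here. Values are TPM, a level per transcript length scaled to a common library total, although the totals over the listed loci differed between libraries, as given below. TPM does not retain the read depth, and precision was judged from the spread between libraries.

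GH3 enzymes of this group join the auxin indole-3-acetic acid (IAA) to amino acids, which takes it out of the active pool. Many GH3 genes are themselves switched on by auxin, so they are both targets of auxin signalling and a brake on it. DAO1 is a dioxygenase that oxidises IAA and its amino acid conjugates, a further step of inactivation. The reference annotation (TAIR10.1) describes 7 of the 8 GH3 members as auxin-responsive GH3 family proteins and GH3.9 as a putative IAA-amido synthetase. It lists DAO1 by locus code alone, as a protein of the 2-oxoglutarate and Fe(II)-dependent oxygenase superfamily.

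The libraries were checked before the members were compared. RAP2.12 (AT1G53910) measured 123, 140 and 161 TPM across the Col-0 libraries, against 360, 363 and 465 TPM under the label rap2.12-2. The transcript of the gene that the allele is named after was therefore higher under that label (log2 fold change 1.48, SE 0.17, limma adjusted p = 0.026; exact two-sided permutation p = 0.10, the smallest that 3 against 3 allows). This limma call was lost under several settings given at the end. What the label means for RAP2.12 activity cannot be read from it, and each difference is given as rap2.12-2 label minus Col-0. Root founder genes that mark callus were present: the 11 listed summed to between 483 and 838 TPM per library, and 10 of them passed the filter on low values, LBD29 being the exception. The 3 green tissue markers summed to at most 3.25 TPM. CLV3, a shoot stem cell marker, was listed at 0 in all 6 libraries and WUS at no more than 0.14 TPM. The other listed shoot meristem marker, STM, passed the filter. It measured 1.35, 2.01 and 2.01 TPM across the Col-0 libraries, against 2.27, 3.5 and 2.7 TPM under the label rap2.12-2. Its groups did not overlap, and it did not pass over all genes (log2 fold change 0.45, limma adjusted p = 0.84). Col-0 replicate 1 stood apart in its listed total (845341 TPM against 984523 to 992724 TPM). The library labelled rap2.12-2 replicate 1 and Col-0 replicate 2 lay at the opposite ends of the first principal component (-69.2 and 44.8, on an axis with 44.3% of the variance).

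Callus of both genotypes held high levels of a few GH3 transcripts and almost none of others. In Col-0 the order by mean TPM was GH3.3 (466 ± 153), GH3.6 (390.4 ± 49.8), GH3.5 (261 ± 46.8), GH3.17 (112 ± 11.9), GH3.2 (104 ± 51), GH3.1 (41.9 ± 30.9) and DAO1 (25.5 ± 3.23; SD, n = 3 each). GH3.9 followed at 0.173 ± 0.0321 TPM (n = 3). The Col-0 ranges of neighbours in this order did not overlap for GH3.6 and GH3.5, GH3.5 and GH3.17, and DAO1 and GH3.9, and overlapped for the others. GH3.2 and GH3.1 overlapped in range, but GH3.2 was the higher in each Col-0 library. Under the label rap2.12-2 the order was GH3.6 (290.5 ± 81.0), GH3.5 (279 ± 87.3), GH3.3 (205 ± 93.2), GH3.17 (147 ± 27.7), GH3.2 (78.2 ± 28.9), GH3.1 (28.0 ± 17.1), DAO1 (19.1 ± 1.58) and GH3.9 (0.0667 ± 0.0208; SD, n = 3 each). There GH3.17 and GH3.2, GH3.2 and GH3.1, and DAO1 and GH3.9 were the neighbours whose values did not overlap. GH3.4 was listed at 0 in all 6 libraries. The mean levels of GH3.3, GH3.5 and GH3.6 over all libraries each exceeded those of more than 97% of the 18629 genes averaging 1 TPM or more (97.8, 97.2 and 97.8% of them), while DAO1 exceeded 54.3%. Of the 9 members, 7 passed this filter, and GH3.4 and GH3.9 did not.

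**Figure D1:**
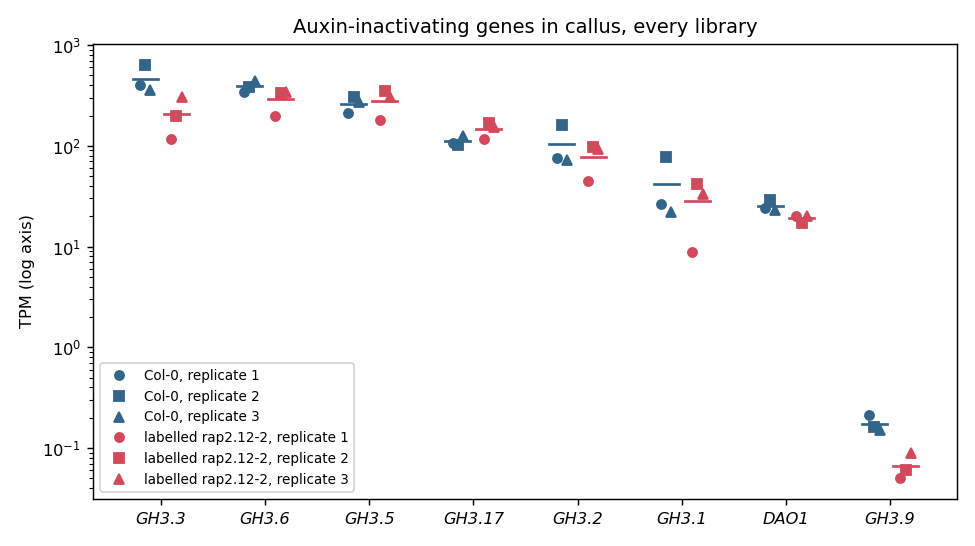
TPM of 8 members on a log axis, with 1 point per library (marker shape gives the replicate number) and short lines for group means. GH3.4 is left out because it was listed at 0 everywhere. The Col-0 points of GH3.3, GH3.6, DAO1 and GH3.9 all lie above the points of the libraries labelled rap2.12-2, and the other members overlap.

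GH3.3, which makes IAA-aspartate and other IAA conjugates, had the largest genotype difference among the members that were tested. It measured 403, 640 and 355 TPM across the Col-0 libraries, against 116, 198 and 302 TPM under the label rap2.12-2. Every Col-0 library was above every library of the other label, with a gap between 302 and 355 TPM. The mean was 2.27 times lower (466 ± 153 against 205 ± 93.2 TPM, n = 3 each). The difference of log2(TPM + 1) was -1.23 (SE 0.34, 95% interval -2.02 to -0.45), and it did not pass over all genes (limma adjusted p = 0.41, unadjusted p = 0.0062; exact two-sided permutation p = 0.10). GH3.3 lies on chromosome 2 (9863855 to 9866562, minus strand, 3 exons). Leaving out rap2.12-2 replicate 1 gave -0.88, and leaving out Col-0 replicate 2 gave -0.98.

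GH3.2 and GH3.1, the members next to GH3.3 in coding sequence apart from GH3.4, followed the same libraries but did not separate by genotype. GH3.2 (named BRU6 in the reference; chromosome 4, 17579618 to 17582022, plus strand) measured 76.2, 163 and 72.6 TPM across the Col-0 libraries, against 45.0, 97.5 and 92.3 TPM under the label rap2.12-2. GH3.1 (chromosome 2, 6451319 to 6453797, minus strand) measured 26.5, 77.5 and 21.8 TPM across the Col-0 libraries, against 8.88, 41.7 and 33.5 TPM under the label rap2.12-2. For both genes Col-0 replicate 2 was the highest library and rap2.12-2 replicate 1 the lowest, and the remaining libraries overlapped. The differences of log2(TPM + 1) were -0.38 (95% interval -1.23 to 0.47, limma adjusted p = 0.88) and -0.59 (-1.95 to 0.78, limma adjusted p = 0.88). They were -0.027 and 0.065 when rap2.12-2 replicate 1 was left out, and -0.0070 and -0.037 when Col-0 replicate 2 was, so the sign of neither can be read. Leaving out both of these libraries together, a choice made after the data were seen and given without a test, turned both differences positive (0.35 and 0.62) and left GH3.3 at -0.63.

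The 300 bases upstream of the annotated transcript starts of these 3 genes and of GH3.5 are shown because GH3.1, GH3.2 and GH3.3 had their highest and lowest levels in the same libraries while GH3.5 had its highest elsewhere. Capitals mark TGTCTC, the auxin response element that auxin response factors bind, searched on both strands. The sequences are from TAIR10.1, 5′ to 3′ along the strand of the gene.
GH3.3 (chr2:9866563-9866862, minus strand): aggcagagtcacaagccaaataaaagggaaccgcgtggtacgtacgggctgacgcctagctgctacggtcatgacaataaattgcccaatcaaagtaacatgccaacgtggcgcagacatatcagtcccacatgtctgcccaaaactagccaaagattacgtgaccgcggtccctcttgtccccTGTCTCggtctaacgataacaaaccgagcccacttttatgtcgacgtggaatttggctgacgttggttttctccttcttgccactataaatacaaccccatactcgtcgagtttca
GH3.2 (chr4:17579318-17579617, plus strand): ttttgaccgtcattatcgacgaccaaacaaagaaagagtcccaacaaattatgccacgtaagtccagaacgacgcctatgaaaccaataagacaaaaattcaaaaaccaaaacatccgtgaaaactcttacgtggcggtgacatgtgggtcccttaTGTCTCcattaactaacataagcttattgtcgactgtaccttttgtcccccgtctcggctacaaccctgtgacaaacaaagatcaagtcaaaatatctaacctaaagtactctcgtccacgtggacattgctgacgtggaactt
GH3.1 (chr2:6453798-6454097, minus strand): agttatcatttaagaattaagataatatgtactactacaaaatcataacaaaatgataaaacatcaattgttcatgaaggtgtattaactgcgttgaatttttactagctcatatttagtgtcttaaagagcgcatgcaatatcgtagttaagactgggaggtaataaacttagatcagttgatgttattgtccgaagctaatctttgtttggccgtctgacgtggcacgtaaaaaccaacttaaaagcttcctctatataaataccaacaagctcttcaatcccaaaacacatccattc
GH3.5 (chr4:13653279-13653578, plus strand): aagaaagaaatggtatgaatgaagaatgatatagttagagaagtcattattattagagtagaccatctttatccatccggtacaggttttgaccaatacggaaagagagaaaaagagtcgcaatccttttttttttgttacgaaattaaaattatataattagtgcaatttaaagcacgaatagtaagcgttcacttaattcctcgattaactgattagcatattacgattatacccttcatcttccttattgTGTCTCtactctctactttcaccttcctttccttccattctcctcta
The element stands 111 to 116 bases before the start of GH3.3, 139 to 144 before that of GH3.2 and 42 to 47 before that of GH3.5, each time on the strand of the gene. Of the 9 members, 3 hold TGTCTC in this window, against 13% of 27437 nuclear protein-coding genes. Within 1000 bases 6 of 9 hold it, against 39.6% of all such genes, and GH3.1 then has it at 801 to 806 bases. The related form TGTCGG was found in 0 of 9 windows of 300 bases (4.91% of all genes) and within 1000 bases in GH3.2 and DAO1 (14.6%). The letters GCCGCC, the core of the GCC box that many ethylene response factors bind, were found in 0 of 9 members in either window, against 2.26% and 8.44% of all genes. These motifs do not overlap each other in the windows shown. A match describes the letters only, and the presence of TGTCTC in the window shown does not sort the members by how their levels varied between libraries, since GH3.5 has it and GH3.1 does not.

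**Figure D2:**
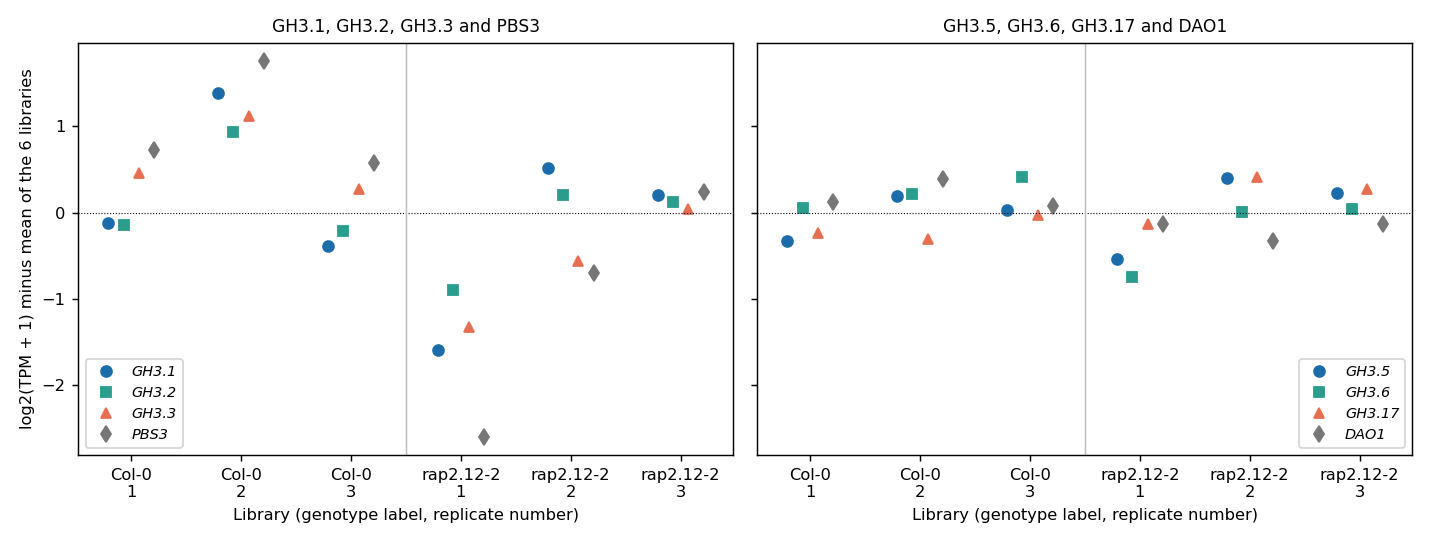
Level of each gene in each library as log2(TPM + 1) minus the mean of the gene over the 6 libraries. The left panel holds GH3.1, GH3.2, GH3.3 and PBS3, all highest in Col-0 replicate 2 and lowest in rap2.12-2 replicate 1; the right panel holds GH3.5, GH3.6, GH3.17 and DAO1, which span 0.72 to 1.16 on this scale against 1.83 to 4.35 on the left.

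GH3.5 and GH3.6, a pair of close relatives that conjugate IAA to several amino acids, stayed high in both genotypes. GH3.6 (DFL1 in the reference; chromosome 5, 22130964 to 22133688, minus strand) measured 343, 386 and 442 TPM across the Col-0 libraries, against 197, 333 and 341 TPM under the label rap2.12-2. The groups did not overlap, but the gap between 341 and 343 TPM was small. The 343 TPM value came from Col-0 replicate 1, the library with the lower listed total. The lowest value was again that of rap2.12-2 replicate 1. The difference of log2(TPM + 1) was -0.46 (95% interval -0.97 to 0.05, limma adjusted p = 0.79), and -0.20 without rap2.12-2 replicate 1. With rescaling to nuclear protein-coding genes it was -0.55 (limma adjusted p = 0.51). GH3.5 (WES1 in the reference; chromosome 4, 13653579 to 13656285, plus strand), which in vitro also acts on salicylic acid, measured 210, 302 and 270 TPM across the Col-0 libraries, against 181, 348 and 308 TPM under the label rap2.12-2. These groups overlapped, with both the lowest and the highest library under the label rap2.12-2. The difference was 0.06 (-0.52 to 0.64, limma adjusted p = 0.97), and its sign changed under quantile normalization (-0.043) and rescaling to nuclear protein-coding genes (-0.025).

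GH3.17, which prefers glutamate as the partner of IAA, was the member with the highest ratio to Col-0. It measured 108, 102 and 125 TPM across the Col-0 libraries, against 116, 170 and 154 TPM under the label rap2.12-2. Of the 3 libraries under that label, 2 were above all of Col-0, and rap2.12-2 replicate 1 lay within the Col-0 range. The mean was 1.31 times higher (112 ± 11.9 against 147 ± 27.7 TPM, n = 3 each), and the difference of log2(TPM + 1) was 0.38 (SE 0.18, 95% interval -0.03 to 0.78, limma adjusted p = 0.77). GH3.17 lies on chromosome 1 (9825169 to 9828118, plus strand) and has 2 annotated transcripts, which a value per gene does not separate. It was the member with a positive difference in every alternative tried.

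DAO1, the oxidase, had a narrow range: its log2(TPM + 1) spanned 0.72 over the 6 libraries, close to the 0.73 of GH3.17. It measured 24.0, 29.2 and 23.2 TPM across the Col-0 libraries, against 20.05, 17.3 and 20.01 TPM under the label rap2.12-2. The groups did not overlap, and rap2.12-2 replicate 1, the lowest library for every GH3 member above 0 except GH3.17, was here level with replicate 3 at the top of its group. The mean was 1.33 times lower (25.5 ± 3.23 against 19.1 ± 1.58 TPM, n = 3 each). The difference of log2(TPM + 1) was -0.39 (SE 0.17, 95% interval -0.77 to -0.01) and did not pass over all genes (limma adjusted p = 0.71, unadjusted p = 0.046). DAO1 lies on chromosome 1 (4835724 to 4837771, minus strand). Its neighbour AT1G14120, a second gene of the same oxygenase superfamily, was near the filter at 0.300, 1.55 and 0.270 TPM across the Col-0 libraries, against 1.70, 2.64 and 1.33 TPM under the label rap2.12-2 (difference 0.81, limma adjusted p = 0.75).

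GH3.9 was almost silent. It measured 0.21, 0.16 and 0.15 TPM across the Col-0 libraries, against 0.05, 0.06 and 0.09 TPM under the label rap2.12-2. The groups did not overlap, but all values were far under the filter of 1 TPM and the depth behind them is unknown. GH3.9 overlaps AT2G09955 on the opposite strand, and whether counting used strand is not stated in those sources, so its reads cannot be assigned with certainty. GH3.4 was listed at 0, although its coding sequence is 90.0% identical to that of GH3.2 and the longest stretch their transcripts share exactly is 65 bases.

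**Figure D3:**
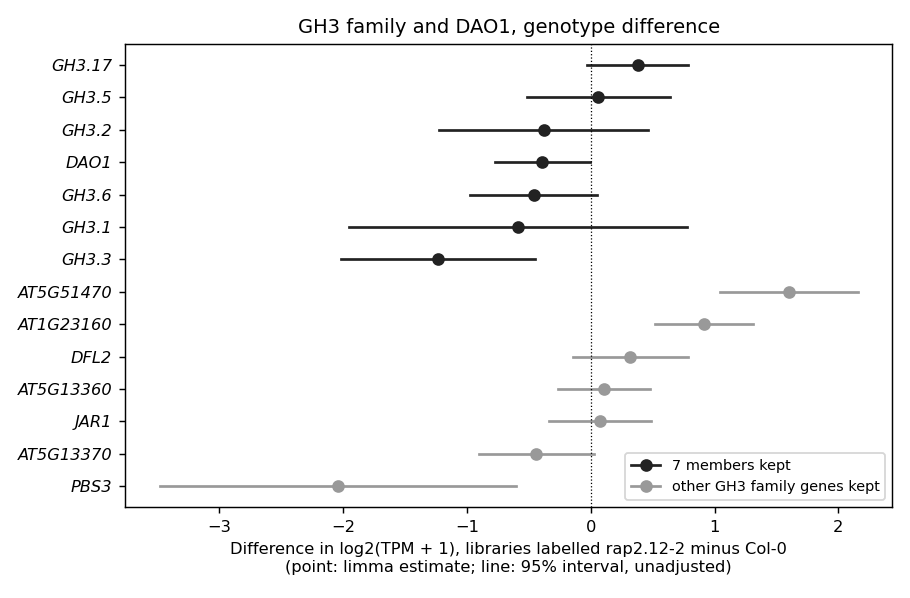
Genotype difference in log2(TPM + 1) for the 7 tested members (black) and the other tested genes of the GH3 family (grey), with the limma estimate as a point and its unadjusted 95% interval as a line. GH3.3 and DAO1 are the members whose interval leaves out 0, and none passed with adjustment over all genes; the DAO1 interval ends at -0.01.

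Of the 7 tested members, 0 passed limma's adjusted threshold of 0.05 in either direction, where 0.0429% of all 18629 tested genes passed as higher and 0.0268% as lower. Before adjustment, with p under 0.05, 0 members were higher (3.22% of all tested genes) and 2 lower, GH3.3 and DAO1 (3.62%). This count depended on the setting and ran from 1 to 4 members over the 16 alternatives with a test. GH3.3 had an unadjusted limma p under 0.05 in 16 of 16, DAO1 in 7, GH3.6 (lower) in 6 and GH3.17 (higher) in 3. For DAO1 the unadjusted limma p was 0.055, 0.19 and 0.058 without Col-0 replicates 1, 2 and 3, and 0.15 and 0.082 without rap2.12-2 replicates 2 and 3. The DAO1 value was 0.032 without rap2.12-2 replicate 1 and 0.014 with rescaling to nuclear protein-coding genes. For GH3.17 the unadjusted limma p was 0.0055 without rap2.12-2 replicate 1, and for GH3.6 it was 0.041 without rap2.12-2 replicate 3. For each of these 2 genes the other 5 omissions of a single library did not bring it under 0.05. Groups did not overlap for 3 tested members, GH3.3, GH3.6 and DAO1, all lower (6.03% of all tested genes), and for 0 members in the higher direction (6.62%). The median difference of the 7 was -0.39 in log2(TPM + 1), against -0.02 over all tested genes. This median depended on single libraries. It was -0.027 without rap2.12-2 replicate 1 (0.06 over all tested genes) and -0.037 without Col-0 replicate 2 (0.02).

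Within a library, the members can also be set against each other, which removes any scaling common to all genes of that library. The 8 GH3 genes together measured 1166, 1671 and 1286 TPM across the Col-0 libraries, against 664, 1188 and 1232 TPM under the label rap2.12-2, so these sums overlapped between the groups. GH3.3 made up 34.5, 38.3 and 27.6% across Col-0, against 17.5, 16.7 and 24.5% under the label rap2.12-2. GH3.5 made up 18.0, 18.1 and 21.0% across Col-0, against 27.3, 29.3 and 25.0% under the label rap2.12-2. GH3.17 made up 9.24, 6.11 and 9.71% across Col-0, against 17.4, 14.3 and 12.5% under the label rap2.12-2. For each of these 3 genes the groups of shares did not overlap, whereas the shares of GH3.1, GH3.2 and GH3.6 did. The shares of GH3.9, at most 0.018%, did not overlap either. How often shares within other sets of genes do not overlap was not counted, so there is no background to set beside these. Mean shares were 33.5 ± 5.45 and 19.6 ± 4.33% for GH3.3, 19.0 ± 1.71 and 27.2 ± 2.14% for GH3.5, and 8.35 ± 1.96 and 14.7 ± 2.5% for GH3.17 (n = 3 each). Shares add up to a fixed total, so a smaller part for GH3.3 raises the others, and no test was run on them. The leading gene was GH3.3 in Col-0 replicates 1 and 2 and GH3.6 in Col-0 replicate 3. Under the other label GH3.3 was behind GH3.5 and GH3.6 in every library.

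**Figure D4:**
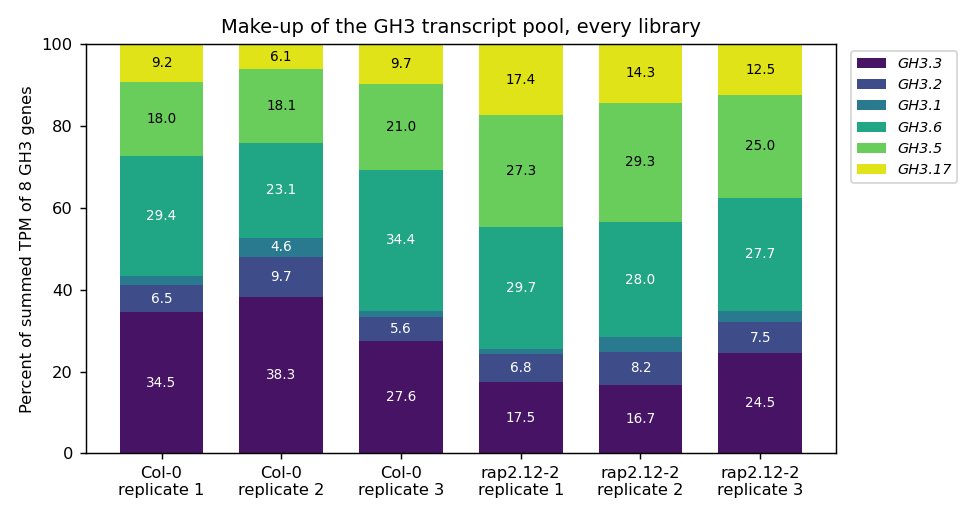
Percent of the summed TPM of the 8 GH3 genes held by each gene in each library (bars from 0 to 100%; GH3.4 at 0 and GH3.9 are not visible). GH3.3 holds 27.6 to 38.3% in the Col-0 bars and 16.7 to 24.5% in the bars labelled rap2.12-2, while GH3.5 and GH3.17 hold larger parts in the latter.

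How members resembled each other in sequence was compared with how they varied. Coding sequences were 84.1% identical between GH3.5 and GH3.6, 79.6% between GH3.2 and GH3.3 and 70.1 to 70.2% between GH3.1 and these last 2. GH3.17 was 57.4 to 60.7% identical to the other GH3 members. No transcript of a member matched another place in the genome over 100 or more bases with 95% identity or higher, and the longest exact stretch was 56 bases between GH3.2 and GH3.3 and 42 between GH3.5 and GH3.6. Read length is not given in the sources used here. The distance between profiles was taken as the root mean square difference of log2(TPM + 1), each gene centred on its own mean, over the 6 libraries. It was smallest for GH3.5 with GH3.17 (0.27) and for GH3.5 with GH3.6 (0.29), and it was 0.93 for GH3.1 with GH3.17. For GH3.2 it was 0.37 with GH3.1 and with GH3.5, 0.41 with GH3.6, 0.48 with DAO1 and 0.49 with GH3.3. GH3.3 lay at 0.53 from GH3.6 and 0.59 from GH3.1. By this distance GH3.1, GH3.2 and GH3.3 did not form a group apart from the rest. The distance counts the size of a gene's swings as well as their pattern, and log2(TPM + 1) spanned 2.99 for GH3.1, 1.83 for GH3.2 and 0.94 for GH3.5. It therefore cannot tell whether the pattern alone followed the sequences. Distances depend on how much a gene varies, so flat genes lie near each other.

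The same distance was used to find the genes most like each member that varied by more than 1 on the log2 scale, among 15335 other genes averaging 5 TPM or more. For GH3.3 these were SNC1 (AT4G16890; distance 0.05), a resistance gene of the TIR-NBS-LRR class, and HAE (AT4G28490; 0.08), a leucine-rich receptor-like kinase gene. SNC1 measured 12.04, 18.96 and 10.07 TPM across the Col-0 libraries, against 2.99, 5.66 and 8.50 TPM under the label rap2.12-2. For GH3.2 they were AT3G51440 (0.07), of a phosphotriesterase superfamily, and ADR1-L2 (AT5G04720; 0.07), a helper gene of resistance signalling. For GH3.1 they were AT1G14480 (0.15), an ankyrin repeat gene, and RLP53 (AT5G27060; 0.17), a receptor-like protein gene. For GH3.6 they were ARK2 (AT1G01950; 0.04), a kinesin gene, and SULTR4;2 (AT3G12520; 0.04), a sulfate transporter gene. These are the nearest of many genes over 6 libraries that share the same differences between libraries, and no test was made of the likeness.

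The rest of the GH3 family had differences in both directions. Of 11 other GH3 genes, 7 were tested, of which 0 passed over all genes, 5 had a positive and 2 a negative difference, and the median was 0.11. Without adjustment, limma p was under 0.05 for 2 higher genes (3.22% of all tested genes) and 1 lower (3.62%), the 3 genes described next. Groups did not overlap for 3 higher genes (6.62% of all tested genes) and 1 lower (6.03%). These were the same 3 genes and DFL2 (0.32, limma adjusted p = 0.85). PBS3 (AT5G13320), which makes a glutamate conjugate on the way to salicylic acid, measured 67.7, 139 and 60.8 TPM across the Col-0 libraries, against 5.84, 24.5 and 47.7 TPM under the label rap2.12-2 (difference -2.04, 95% interval -3.48 to -0.60, limma adjusted p = 0.47). Its groups did not overlap, and its highest and lowest libraries were those of GH3.1, GH3.2 and GH3.3. AT5G51470, annotated as a GH3 family protein, measured 23.8, 37.4 and 28.8 TPM across the Col-0 libraries, against 89.3, 124 and 68.7 TPM under the label rap2.12-2, with no overlap (1.60, 1.04 to 2.15, limma adjusted p = 0.11). AT1G23160, also of the family, measured 85.3, 102 and 107 TPM across the Col-0 libraries, against 154, 220 and 188 TPM under the label rap2.12-2, again with no overlap (0.92, 0.52 to 1.31, limma adjusted p = 0.23). For these last 2 genes rap2.12-2 replicate 1, the lowest library of GH3.3, was above every Col-0 library.

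Genes around the members in the auxin pathway gave 0 limma calls over all genes in any list. Without adjustment, limma p was under 0.05 for 2 synthesis genes, YUC7 and YUC9, both higher (3.22% of all tested genes). It was also under 0.05 for 2 Aux/IAA genes, IAA29 and IAA5, both lower (3.62%), and for 0 genes of the other 4 lists. Among 13 auxin synthesis genes 7 were tested, and YUC7 (AT2G33230), a flavin monooxygenase of the last step to IAA, measured 44.3, 42.2 and 53.4 TPM across the Col-0 libraries, against 86.7, 71.6 and 64.8 TPM under the label rap2.12-2 (difference 0.66, limma adjusted p = 0.38). YUC9 (0.70, limma adjusted p = 0.59) and TAR2 (-0.25, limma adjusted p = 0.86) were the next by p, and the list median was 0.19. The 6 tested conjugate hydrolases, which release IAA from its amino acid conjugates, had a median of -0.08, led by ILL3 (0.32), IAR3 (-0.33) and ILL2 (-0.30; limma adjusted p from 0.84 to 0.86). IAMT1 (-0.27), an IAA methyltransferase gene, and UGT74D1 (-0.12), an auxin glucosyltransferase gene, were tested with AT1G14120 among 6 other genes of auxin modification.

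No auxin receptor or response factor gene passed the test. All 6 TIR1/AFB receptor genes were tested, with differences from 0.04 to 0.18 (AFB2 0.18, AFB5 0.14 and AFB4 0.12 had the smallest p; limma adjusted p from 0.87 to 0.90). Of 6 auxin response factor genes, which bind TGTC motifs, ARF7 (-0.49), ARF19 (-0.52) and ARF8 (-0.36) had the smallest p (limma adjusted p from 0.86 to 0.87). Each of these 3 was low in rap2.12-2 replicate 1 alone: ARF19 measured 9.73 TPM there against 32.6 to 38.2 TPM in the other 5 libraries, ARF7 7.70 against 19.8 to 24.7 TPM, and ARF8 21.6 against 45.8 to 55.0 TPM. All 6 factors were lowest in that library: ARF6 measured 22.0 against 45.2 to 62.5 TPM, ARF5 172 against 201 to 292 TPM, and ARF17 10.4 against 13.05 to 17.2 TPM. In the same library GH3.3, GH3.6, GH3.5, GH3.2 and GH3.1 were lowest, and the part of these factors in those values was not tested. Being lowest there was not particular to these factors. TIR1 (61.98 TPM), IAR3 (38.66 TPM) and the root founder marker PLT3 (199.53 TPM) were also lowest in it, while IAA2 (819 TPM) and YUC7 (86.7 TPM) were highest in it. That library lay at an end of the first principal component, and the share of all genes lowest in it was not counted. Among 8 auxin-induced Aux/IAA repressor genes 7 were tested and the median was 0.10. IAA29 (AT4G32280) measured 16.8, 18.7 and 10.4 TPM across the Col-0 libraries, against 2.88, 4.74 and 7.59 TPM under the label rap2.12-2 (-1.46, limma adjusted p = 0.30). IAA5 (-0.43, limma adjusted p = 0.67) also did not overlap, where 6.03% of all tested genes did not overlap in the lower direction. IAA1 had 0.28 (limma adjusted p = 0.83).

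**Figure D5:**
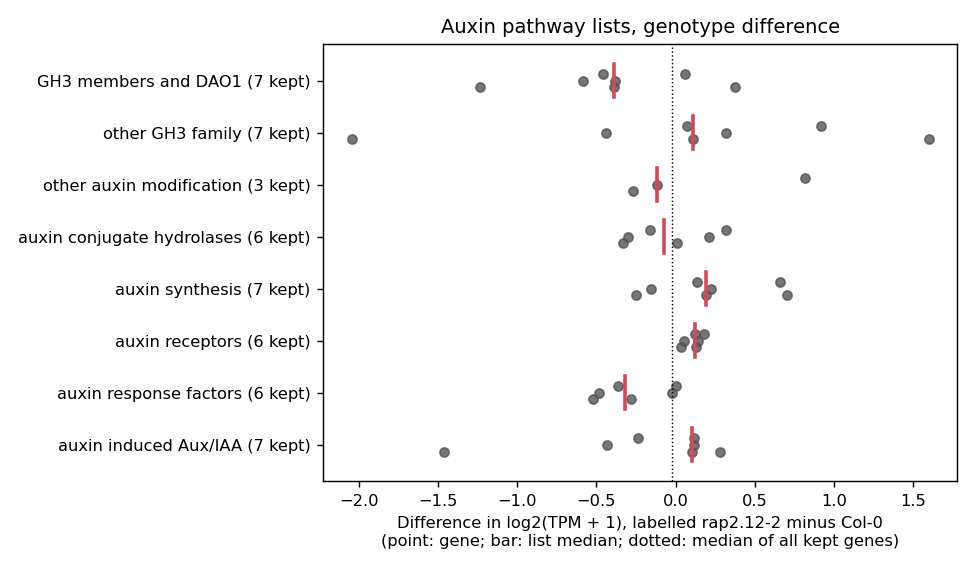
Genotype differences in log2(TPM + 1) for the tested genes of the auxin pathway lists (points), with the list median (bar) and the median of all tested genes (dotted line). List medians lie between -0.39 for the GH3 members with DAO1 and 0.19 for auxin synthesis. The median of the members was -0.027 without rap2.12-2 replicate 1 and -0.037 without Col-0 replicate 2.

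Cell type markers were set beside these values, since in bulk tissue fewer cells of a type and less RNA per cell cannot be told apart. The 4 xylem markers summed to 149, 186 and 185 TPM across the Col-0 libraries, against 240.5, 252 and 242 TPM under the label rap2.12-2, without overlap. Most of this sum came from XCP1 and XCP2, xylem cysteine protease genes, each without overlap between the groups (differences 0.50 and 0.56, limma adjusted p = 0.46 and 0.39). Of all tested genes, 6.62% did not overlap in the higher direction. The other 2 markers overlapped: IRX3, a cellulose synthase gene of the secondary wall, had a difference of 0.37 (limma adjusted p = 0.85) and VND7, a vessel regulator gene, -0.09 (limma adjusted p = 0.94). The 11 root founder markers summed to 742, 825 and 838 TPM across the Col-0 libraries, against 483, 814 and 766 TPM under the label rap2.12-2, lowest in rap2.12-2 replicate 1. Of the 10 tested, groups did not overlap for 2 lower markers, WOX11 and WOX5 (6.03% of all tested genes), and 1 higher, LBD17 (6.62%). WOX11 measured 193, 171 and 196 TPM across the Col-0 libraries, against 73.4, 103 and 130 TPM under the label rap2.12-2. Its difference was -0.90 (limma adjusted p = 0.32, unadjusted p = 0.0022). The 2 epidermis markers summed to 18.2, 27.2 and 20.4 TPM across the Col-0 libraries, against 7.67, 20.7 and 10.5 TPM under the label rap2.12-2. Most of this sum came from PDF1 (7.05 to 25.96 TPM), highest in Col-0 replicate 2 and lowest in rap2.12-2 replicate 1, the same libraries as for GH3.1, GH3.2 and GH3.3. The other marker, ATML1 (0.62 to 1.84 TPM), was also lowest in rap2.12-2 replicate 1 but highest in Col-0 replicate 3. The 2 phloem markers summed to 9.91 to 11.8 TPM in Col-0 and 10.8 to 14.4 TPM in the others. The 3 shoot meristem markers summed to 1.49 to 2.01 TPM and 2.27 to 3.5 TPM, and the 3 green tissue markers to 2.35 to 3.25 TPM and 1.26 to 2.08 TPM. The part of cell composition in the values of the GH3 genes was not tested.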

How the data were processed

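Total RNA of callus was extracted with TransZol Up and sequenced from TruSeq libraries, per the labels' protocols. The authors deposited 1 table of TPM for 31305 loci and 6 libraries, with no reads, so depth per library is unknown. RSEM 1.3.1, STAR 2.7.10a and a TAIR10 build are listed, with no role, per the submitters' processing notes. TPM divides by transcript length and library total, so a few abundant transcripts lower all others.

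Column names matched sample titles, and 0 columns were left unused. Locus codes were matched to the RefSeq annotation of TAIR10.1 (31217 matched, 88 did not), which gives all coordinates and sequences. The 18629 genes averaging 1 TPM or more were kept, taken as log2(TPM + 1), and compared with limma 3.58.1 (R 4.3.3) with a variance trend and Benjamini-Hochberg adjustment over kept genes at 0.05. A fold change on this scale understates changes of low genes. Ratios called times are ratios of mean TPM. Coding sequences were aligned with Biopython 1.88 and transcripts searched with BLAST 2.17.0. Simulated data with known changes and independent noise for each gene were used to test the code of the fit. They lack the differences between libraries that many genes share here, so they cannot tell how the fit performs on these data.

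The members, lists and tests were chosen with earlier results of these data known. The text names the 9 members, RAP2.12, up to 3 genes with the smallest p of each auxin list, and the 2 genes nearest in profile to each member spanning more than 1 on the log2 scale. The cell type markers come from fixed lists; the ones named singly were chosen after their values were seen. Alternatives were pseudocounts of 0.1 and 0.5, quantile normalization, median-of-ratios scaling, rescaling to nuclear protein-coding genes, a minimum mean of 5 TPM, no filter, no variance trend, a block for replicate number, and leaving out single libraries or both replicates 1.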

Additional observations from a re-analysis of the deposited data

How the results depend on the processing

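Over 16 alternatives with a test, limma called 0 of the 7 tested members each time. At an unadjusted p under 0.05 there were 2 members in the main comparison and 1 to 4 in the alternatives: 1 without Col-0 replicate 1, 2 or 3, without rap2.12-2 replicate 2 and with no variance trend, 3 without rap2.12-2 replicate 1, with median-of-ratios scaling and with rescaling to nuclear protein-coding genes, and 4 without both replicates 1. Of 112 member differences, 106 kept their direction. GH3.3 ran from -1.56 to -0.88, DAO1 from -0.45 to -0.29, GH3.6 from -0.60 to -0.20 and GH3.17 from 0.26 to 0.54 on leaving out single libraries (lowest limma adjusted p of any alternative 0.14, 0.41, 0.46 and 0.43). GH3.2 ran from -0.58 to -0.01. GH3.1 ran from -0.99 to 0.065 and GH3.5 from -0.13 to 0.34, so these changed sign, and GH3.5 also did with quantile normalization (-0.043) and rescaling to nuclear protein-coding genes (-0.025). Without Col-0 replicate 2 and rap2.12-2 replicate 1 together, an alternative added after the data were seen, GH3.1 was 0.62 and GH3.2 was 0.35.

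Over all genes, limma called 13 (8 higher and 5 lower), 6 with no filter, 5 with no variance trend, 4 to 21 with 1 library left out and 0 without both replicates 1 (1215 had an unadjusted p under 0.05). With median-of-ratios scaling, 3 higher and 6 lower genes were called, and with rescaling to nuclear protein-coding genes 6 in each direction, with the median of all genes at -0.10. The RAP2.12 difference stayed at 1.48 but lost its call with no filter (limma adjusted p = 0.062) and no variance trend (0.077), was 1.45 without both replicates 1 (0.31), and ran from 1.36 to 1.58 with 1 library left out (0.047 to 0.22, past the threshold only without rap2.12-2 replicate 1).

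Whether replicate numbers pair the samples cannot be decided from 3 libraries per group. Deviations from the group means of same-numbered libraries, across genes, correlated at 0.20, 0.35 and -0.11. Those of differently numbered libraries correlated at -0.34 to 0.23. With the replicate number as a block, 4 genes were called in all and 0 members (GH3.3 limma adjusted p = 0.28), and RAP2.12 was at 1.48 (0.062). An unadjusted limma p under 0.05 was then found for 1785 genes, against 1274 in the main comparison. Depth is unknown, which limits what can be said of GH3.4 and GH3.9.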
